A study of Saccharomyces cerevisiae with 2 samples.

Results

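DNA bound by S9.6, a monoclonal antibody against RNA:DNA hybrids, was examined over 33 nuclear genes of glycolysis, alcoholic fermentation, acetate formation and glycerol formation in budding yeast (Saccharomyces cerevisiae). The genes were chosen by name from the pathway, not by a measured value, but with earlier results of these data known. All 33 were found among 6002 nuclear protein-coding genes of the RefSeq gene table. They comprise 3 genes of hexose phosphorylation, 5 of upper glycolysis, 11 of lower glycolysis, 7 of ethanol formation, 3 of acetate formation and 4 of glycerol formation. The S9.6 immunoprecipitate (1 library) came from DRIP-seq, in which genomic DNA cut with restriction enzymes is pulled down with the antibody, and 1 input library was set aside before the pull-down. Both came from asynchronous cells of strain WRBb-9D in mid-log growth at 30 °C in YPAD, a rich glucose medium. The labels call this strain wild type, but it is MATa with the alleles trp1-1, can1-100, ade2-1 and his3-11,15 and a mutant LEU2 allele, lacks BAR1 (bar1-delta), carries a tagged helicase (RRM3::FLAG::KAN) and holds the insert ura3::URA3/GPD-Tk(7x). The immunoprecipitate and the input share all of these. The GPD promoter of that insert is the name in common use for the TDH3 promoter, and TDH3 is one of the 33 genes.

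Glycolysis turns glucose into pyruvate in the cytosol, and growing yeast on glucose sends most of that pyruvate through acetaldehyde to ethanol, with acetate and glycerol as side products. Most steps are encoded by more than 1 gene, of which 1 usually makes most of the enzyme on glucose and the others are low or are used under other conditions. The main genes of the pathway are among the most strongly transcribed of the yeast genome, under the activators Gcr1 and Rap1. RNA:DNA hybrids form where a transcript anneals back to its template strand. Transcript levels of this strain were not analysed here.

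The peak list of the immunoprecipitate holds 1687 nuclear peaks with their summits and scores. The input was not analysed separately, and whether the authors' peak calling used it as a control is unknown. Read depth is unknown. With 1 library there was no replicate and no test, so that the differences described here have no replicate check and carry no p-value. The score is the authors' own, on a scale not given in the sources used here. It only ranks peaks within this list, where the nuclear median was 24 and the nuclear maximum 679. Positions are 1-based, on sacCer3 (the R64 assembly).

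Peaks lay over the 33 genes more densely than over protein-coding genes in general, and mostly over lower glycolysis. Covered means that peaks took up 50% or more of the gene, and touched that they overlapped it by 1 bp or more. Of the 33 genes, 7 were covered (21.2%), against 4.42% of all nuclear protein-coding genes. The exact Clopper-Pearson 95% interval was 8.98 to 38.9%, counting error only. Such intervals treat genes as independent draws, which was not shown for paralogs chosen by name, and are no test. Without the 7 genes that have near-identical copies among the 33, for which the assignment of reads is uncertain, 3 of 26 were covered (11.5%). Of those 3, CDC19 alone belongs to lower glycolysis. The 7 covered genes of the 33 were TDH3, ADH1, FBA1, ENO2, CDC19, TDH2 and ENO1. Another 7 were touched but not covered, which made 14 touched genes (42.4%; interval 25.5 to 60.8%), against 21.2% of all nuclear protein-coding genes. Of the bases of the 33 genes, 21.1% lay inside peaks, against 6.96% of the bases of the other nuclear protein-coding genes. The median share over the 33 genes was 0%, as it was over the other genes, because 19 of the 33 had no peak. With 25% of the length in place of 50%, 13 of the 33 genes passed, against 8.96% of all nuclear protein-coding genes, and with 90%, 2 passed, against 1.45%.

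The counts were also above those of genes of like length. The 33 genes are 744 to 2964 bp long. Among the other protein-coding genes within 10% of the length of each, 3.42% were covered on average and 20.4% touched, which for 33 genes adds up to 1.13 covered and 6.74 touched, against the 7 and 14 counted. For ENO1, ENO2, PGK1, GPD2 and the 2 hexokinase genes, this comparison group contains unnamed ORFs with the length of Ty retrotransposon Gag frames. Without ORFs of Ty length the sum was 0.882 covered genes. None of the 33 genes had a tRNA gene or such an ORF within 1 kb.

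**Figure D1:**
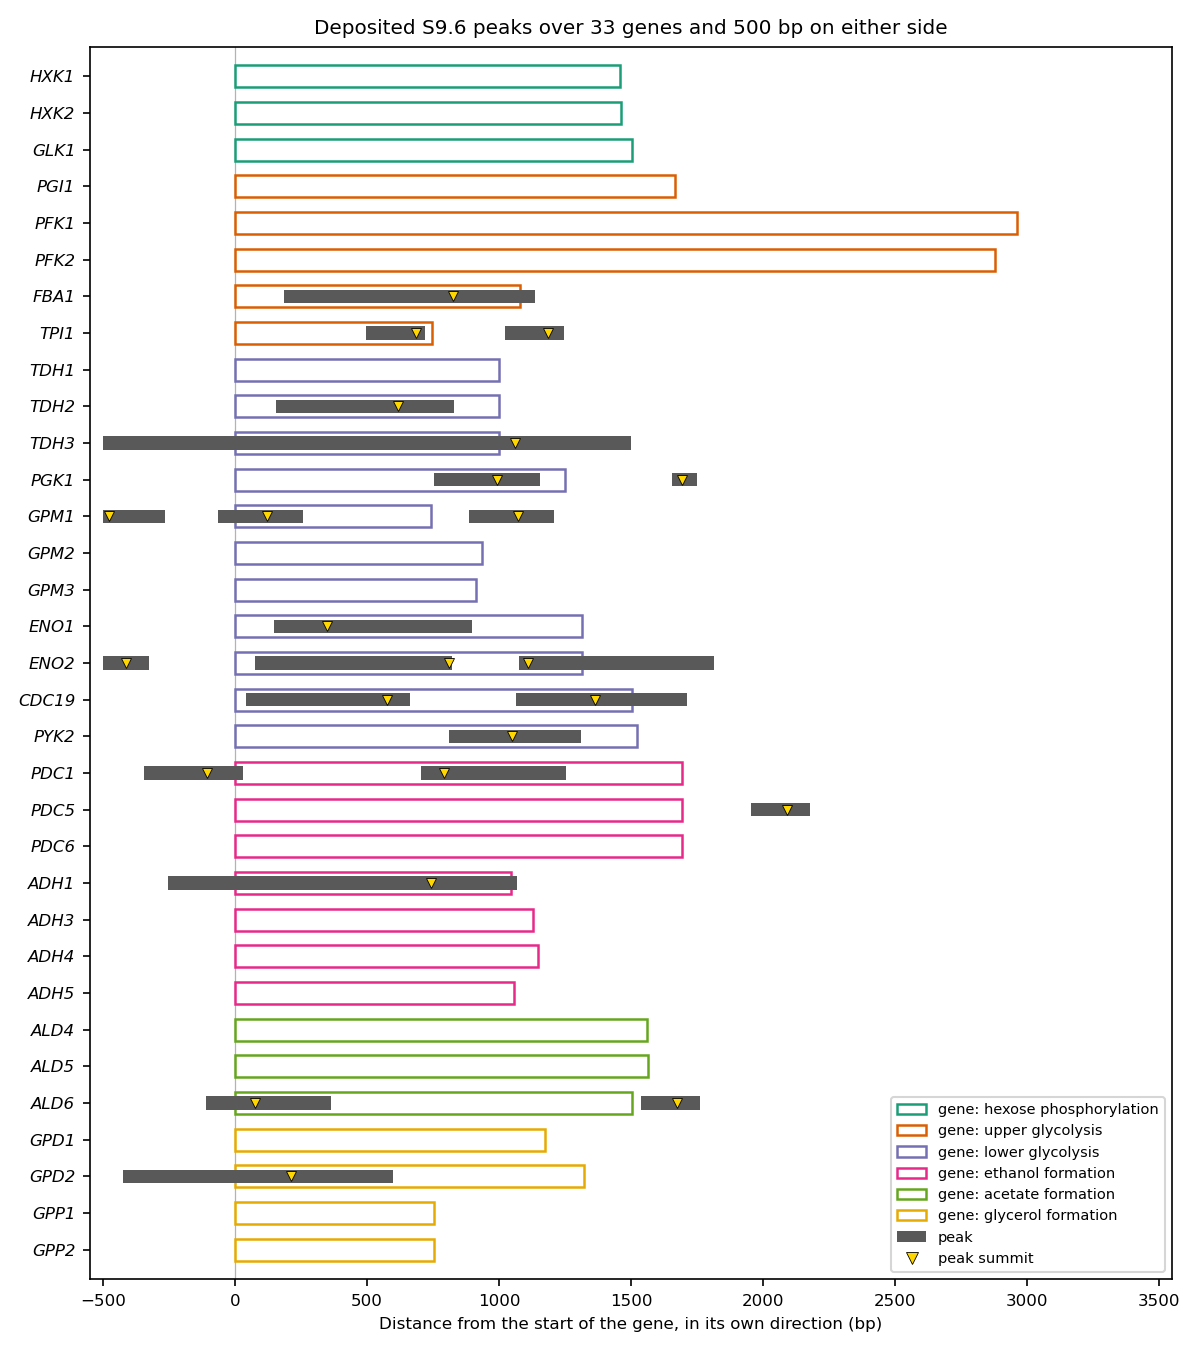
Peaks along each of the 33 genes. Each open box is a gene, drawn to scale from its start in bp and coloured by pathway step, grey bars are deposited peaks cut at 500 bp on either side, and triangles are peak summits. Peaks lie mainly on the genes from FBA1 to PDC1 and on ADH1, while 18 genes have no peak in the gene or in either flank.

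The first steps of the pathway had no peaks, as most genes did. Of all nuclear protein-coding genes, 69.4% had no peak in the gene or its flanks. Among genes of like length, 20.8% (for GLK1) to 29.4% (for PFK1) were touched. HXK1, HXK2 and GLK1, the kinases that phosphorylate glucose, had 0% of their length inside peaks, and so did PGI1, the phosphoglucose isomerase, and PFK1 and PFK2, the subunits of phosphofructokinase. The nearest peaks lay 4310 bp (PFK2) to 10467 bp (PFK1) away from these 6 genes. In pathway order, the first gene with a peak was that of the aldolase step. FBA1, the aldolase that splits the hexose into triose phosphates (chromosome XI, 326408 to 327487, minus strand), was 82.7% inside 1 peak, which scored 61. That peak left the first 187 bp of the gene free and ran 57 bp past its end. Only 7 of 636 other genes of like length had as high a share. TPI1, the triose phosphate isomerase (chromosome IV, 555726 to 556472, minus strand), was 30.1% inside a peak with a score of 26, placed wholly in its second part with the summit 62 bp before the end of the gene. A further peak with a score of 15 lay in its downstream flank.

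Lower glycolysis, from glyceraldehyde-3-phosphate to pyruvate, held 5 of the 7 covered genes and 8 of the 14 touched ones, out of 11 (45.5% covered and 72.7% touched, against 4.42% and 21.2% of all nuclear protein-coding genes). Genes of like length would give 0.454 covered and 2.098 touched of 11. Among the covered genes, TDH2, TDH3, ENO1 and ENO2 have near-identical copies, which makes the assignment of their reads uncertain. Apart from them, only CDC19 was covered in lower glycolysis. The 3 glyceraldehyde-3-phosphate dehydrogenase genes, each 999 bp long, differed most widely. TDH3, which makes most of the enzyme (chromosome VII, 882812 to 883810, minus strand), lay wholly inside a 2350 bp peak with a score of 100, the widest peak over any of the 33 genes. The peak began 840 bp before the gene and ended 511 bp after it, so that both 500 bp flanks were also wholly inside it, and its summit lay 61 bp past the gene's end. It reached 142 bp into PDX1, the gene upstream, which encodes a component of the pyruvate dehydrogenase complex. Of 633 other genes of like length, 7 were also wholly covered. The strain's GPD-Tk insert carries the same promoter sequence, and the part of reads from that insert in this peak was not tested. TDH2 (chromosome X, 453683 to 454681, minus strand) was 67.6% inside a peak of low score, 16, that lay within the gene and left both flanks free. TDH1 (chromosome X, 338271 to 339269), the gene used mainly outside exponential growth, had no peak within 10907 bp.

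The remaining steps of lower glycolysis showed partial cover with different placements. PGK1, the phosphoglycerate kinase (chromosome III, 137746 to 138996), was 32.0% inside a peak with a score of 35 in its second part. The 1150 bp peak that lies in part in its downstream flank (score 26) lies wholly within POL4, a convergent gene for a DNA polymerase. GPM1, the phosphoglycerate mutase (chromosome XI, 163642 to 164385, minus strand), was 34.9% inside a peak over its start with a score of 32. It was also flanked by a peak on each side, with scores of 21 upstream and 48 downstream. The upstream one reached 59 bp into NNR2, the next gene, which encodes an enzyme of NAD(P)H repair. GPM2 and GPM3, homologues of GPM1 with little or no activity in the pathway, had no peak in the gene or its flanks.

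Both enolase genes were covered. ENO2, the form made on glucose (chromosome VIII, 451327 to 452640), was 75.3% inside 2 peaks with scores of 73 and 80, separated by 250 bp. The second of these ran 1210 bp past the gene's end over the whole of CTR2, a copper transporter gene in tandem, and a small ORF, YHR175W-A. A further peak with a score of 26 lay in its upstream flank, mainly over the ORF YHR173C, with 6 bp in SPC97, a gene of the microtubule-nucleating complex. ENO1 (chromosome VII, 1000927 to 1002240) was 57.1% inside a peak with a score of 52 that lay wholly within the gene. CDC19, the pyruvate kinase made on glucose (chromosome I, 71786 to 73288), was 70.7% inside 2 peaks with scores of 24 and 32, one in the first part of the gene and one across its end, with 400 bp between them. The peak across the end also held 80.6% of YAL037C-A, a small ORF on the other strand. Only 8 of 664 other genes of like length had as high a share as CDC19. PYK2, the pyruvate kinase repressed by glucose (chromosome XV, 984942 to 986462, minus strand), was 32.9% inside a peak that scored 15, the lowest over the 33 genes, shared with ALD6.

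In ethanol formation, peaks were found over the main decarboxylase and dehydrogenase genes. PDC1, the main pyruvate decarboxylase (chromosome XII, 232390 to 234081, minus strand), had 34.3% of its length inside 2 peaks. One of them, with a score of 35, lay over the promoter, with its summit 107 bp before the gene's start, and the other, with a score of 26, lay in the middle of the gene. PDC5 and PDC6 had no peak in the gene, and PDC5 had one with a score of 29 starting 262 bp past its end. ADH1, the main fermentative alcohol dehydrogenase (chromosome XV, 159548 to 160594, minus strand), lay wholly inside a 1325 bp peak with a score of 52. This peak reached 256 bp upstream and only 22 bp downstream. TDH3 and ADH1 were the 2 genes of the 33 wholly inside peaks, against 1% of all nuclear protein-coding genes. ADH3, a mitochondrial form, ADH4 and ADH5 had no peak within 4334 bp.

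Acetate and glycerol formation had no covered gene, and the peaks that touched their genes lay over gene starts. ALD6, the cytosolic acetaldehyde dehydrogenase (chromosome XVI, 432588 to 434090), was 24.2% inside a peak over its start with a score of 15, and a second peak with a score of 24 lay just past its end. ALD4 and ALD5, the mitochondrial forms, had none. GPD2, a glycerol-3-phosphate dehydrogenase (chromosome XV, 217126 to 218448), was 45.4% inside a peak that scored 103, the highest over any of the 33 genes and 52nd among the nuclear peaks. It ran from 425 bp before the start to 600 bp into the gene. GPD1, the isoenzyme induced by osmotic stress, had no peak within 8076 bp. The phosphatase genes GPP1 and GPP2, which complete glycerol synthesis, had no peak within 3390 bp and 1980 bp.

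Within the isoenzyme sets given a main gene on glucose, that gene had the larger share inside peaks wherever the set had any. Main genes were assigned from textbook knowledge, not from these data, for 9 sets, and GPD1 and GPD2 were left without one. GPD2 was 45.4% inside peaks and GPD1 0%, so that naming GPD1 the main gene would have put a minor gene above it. In 7 of the 9 sets the main gene was above every minor gene, and in the other 2 (hexokinases and glycerol-3-phosphate phosphatases) all genes were at 0%. The 7 include the sets of TDH3, ENO2, PDC1 and ADH1, for which the split of cover between close copies is uncertain. With all peaks, no minor gene was above its main gene in these 9 sets. With 200 bp around each summit, TDH2 was above TDH3. With only peaks under the median score, TDH2 and PYK2 were above TDH3 and CDC19. The difference between the main gene and the highest minor one was 18.3 percentage points for enolase, where both genes were covered, and 100 for alcohol dehydrogenase. That set leaves out ADH2, the close paralog of ADH1, which is not one of the 33 genes and was 26.3% inside peaks, 73.7 points below ADH1. Of 9 main genes, 7 were touched (77.8%) and 4 covered (44.4%), against 21.2% and 4.42% of all nuclear protein-coding genes. Of 16 minor genes, 3 were touched (TDH2, ENO1 and PYK2; 18.8%), close to the share of all genes, and 2 covered (12.5%). The share of bases inside peaks was 48.1% over the main genes and 9.51% over the minor genes. Main and minor genes had similar length, with medians of 1314 and 1231.5 bp. With the highest peak score in place of the share, the main gene was also above every minor gene in 7 of 9 sets. The score could differ from the share only for glyceraldehyde-3-phosphate dehydrogenase, enolase and pyruvate kinase. In the other sets no minor gene had a peak.

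**Figure D2:**
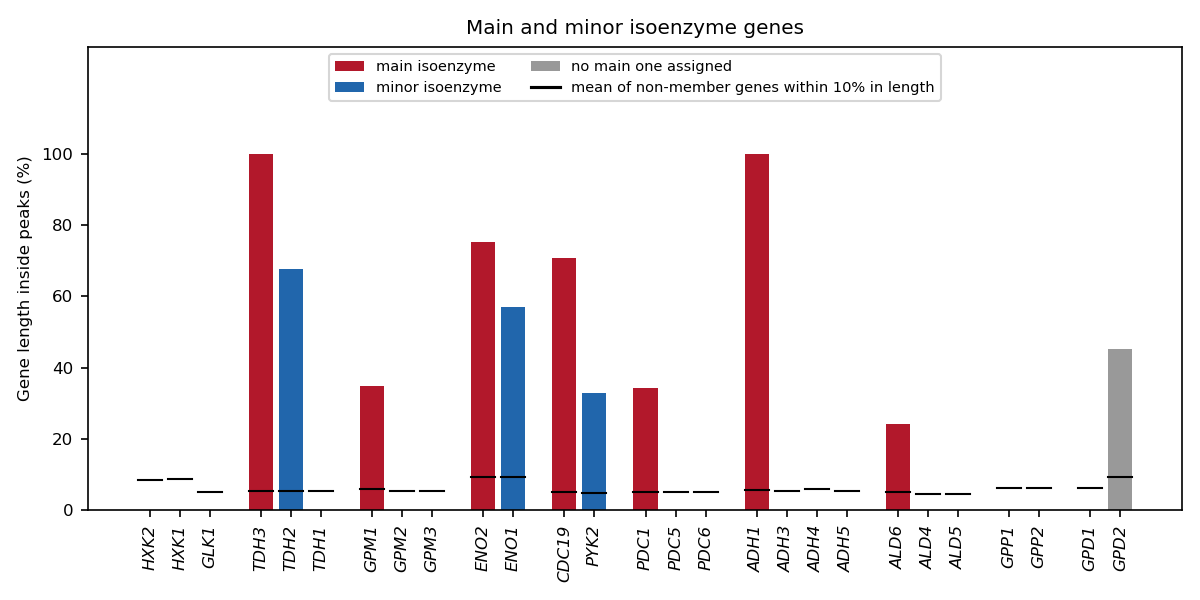
Share of each gene inside peaks, in percent, for the isoenzyme sets. Red bars are main genes on glucose, blue bars minor genes, grey bars the pair with no main gene assigned, and black lines the mean share of other genes within 10% in length. TDH3 and ADH1 reach 100%, and 13 of the 16 minor genes have no bar because they are at 0%.

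Several of these genes have near-identical copies, named without comparing sequences, and other pairs, such as GPP1 and GPP2, were not checked. The treatment of reads matching more than 1 place is not stated for these data. The split of cover between TDH1, TDH2 and TDH3, between ENO1 and ENO2, and between PDC1 and PDC5 is therefore uncertain. Of the other 26 genes, the 3 covered (11.5%, against 4.42% of all nuclear protein-coding genes) were FBA1, CDC19 and ADH1, and 9 were touched (34.6%, against 21.2%). The value of ADH1 is uncertain in the same way, since ADH2 is a close paralog. Of the sets led by their main gene, only phosphoglycerate mutase, pyruvate kinase and aldehyde dehydrogenase hold none of these genes. The count of such sets and the main and minor shares of bases were not recomputed without the others.

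Cover was spread along the genes, with no consistent preference for one end. Each gene was divided into 3 equal parts, called start, middle and end. On average over the 33 genes, 24.9% of the start part, 24.1% of the middle part and 22.6% of the end part lay inside peaks, against 6.22%, 5.93% and 6.92% in the other nuclear protein-coding genes. Among the 14 touched genes, the start part was more covered than the end part in 7 and less in 5, and the 2 wholly covered genes were equal. The end part exceeded the start part in FBA1, TPI1, PGK1, PYK2 and PDC1. The upper glycolysis genes with peaks were covered towards the end of the gene (mean of 38.0% of the end part and 9.61% of the start part over 5 genes), whereas ALD6 and GPD2 had no cover in the end part. The first base of the gene was inside a peak in 6 of the 33 genes (TDH3, GPM1, PDC1, ADH1, ALD6 and GPD2; 18.2%), against 6.98% of all nuclear protein-coding genes. The last base was inside a peak in 5 (FBA1, TDH3, ENO2, CDC19 and ADH1; 15.2%), against 7.55%.

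**Figure D3:**
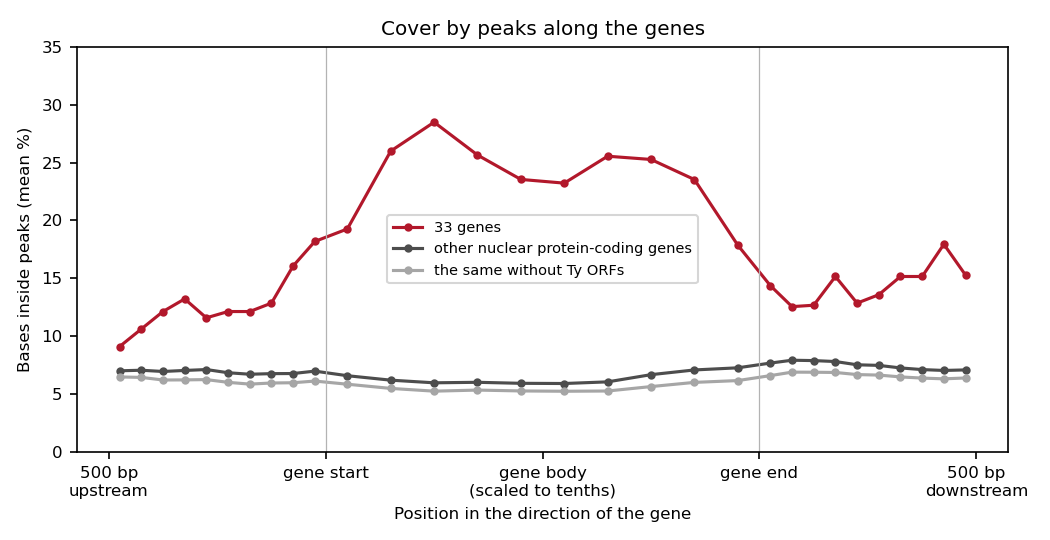
Mean share of bases inside peaks, in percent, from 500 bp upstream (bins of 50 bp) through the gene (10 equal parts) to 500 bp downstream, for the 33 genes (red), the other nuclear protein-coding genes (dark grey) and the same without ORFs of Ty length (light grey). The 33 genes reach 28.5% in the third of the 10 parts of the gene, and the other genes stay between 5.90% and 7.91% throughout.

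The flanks held less of the cover than the genes. The 500 bp upstream were 12.8% inside peaks on average and the 500 bp downstream 14.5%, against 6.91% and 7.47% for the other nuclear protein-coding genes. A peak touched the upstream flank of 7 of the 33 genes (21.2%), against 13.5% of all nuclear protein-coding genes, and the downstream flank of 10 (30.3%), against 14.7%. TDH3 alone had both flanks wholly inside a peak, and without it the means were 10.1% upstream and 11.8% downstream. In 18 of the 33 genes (54.5%), neither the gene nor its flanks had a peak, against 69.4% of all nuclear protein-coding genes. The 19 untouched genes were mostly far from any peak, with the nearest 262 to 12938 bp away and a median of 5277 bp.

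The 17 peaks that touched the 33 genes were wider and of higher score than most. Their median width was 650 bp and their median score 35, against 300 bp and 22 for the 1229 other nuclear peaks that touch a protein-coding gene but no tRNA gene or ORF of Ty length. Of the 17, 14 had a score at or above the nuclear median (82.4%), against 44.2% of the 1229. Wider peaks are more likely to touch any gene, and this comparison was not adjusted for it. Their summits lay inside the gene in 15 cases, 4 in the start part, 4 in the middle part and 7 in the end part. The exceptions were the TDH3 peak, with its summit downstream, and the promoter peak of PDC1. With only the 840 nuclear peaks scoring under 24, 3 of the 33 genes were touched (9.09%: TDH2, PYK2 and ALD6), against 11.0% of all nuclear protein-coding genes. With the 847 peaks scoring 24 or more, 11 were touched (33.3%), against 11.5%.

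Genes of adjoining pathways were less covered than the 33 genes. In 6 lists of gluconeogenesis, pentose phosphate, storage carbohydrate, TCA cycle, acetyl-CoA and glycerol use, and regulators of glycolysis, none of 71 genes was covered (0%, interval up to 5.06%). The share of all nuclear protein-coding genes covered, 4.42%, lies inside that interval, which treats genes as independent and is no test. Of the 71, 11 were touched (15.5%), below the 21.2% of all nuclear protein-coding genes, and 1.55% of their bases lay inside peaks. Like-length genes would give 1.88 covered and 16.1 touched. Touched genes numbered 1 of 7 in gluconeogenesis, 1 of 11 in the pentose phosphate pathway, 2 of 13 in storage carbohydrates, 3 of 19 in the TCA cycle, 2 of 12 in acetyl-CoA and glycerol use and 2 of 9 among the regulators. The highest share was in ADH2, the glucose-repressed dehydrogenase that uses ethanol (chromosome XIII, 873291 to 874337), with 26.3% inside a peak scoring 32 and 61.3% of its end part. SOL4, of the pentose phosphate list, was 23.3% inside a peak scoring 21. FBP1, the gluconeogenic phosphatase that opposes phosphofructokinase, was 18.3% inside peaks, all of it in the start part. ADH2, SOL4 and FBP1 were named after their values were seen. PCK1, ZWF1, the first enzyme of the pentose phosphate pathway, CIT1, a citrate synthase, and GCR1 and RAP1, which encode the activators of glycolytic genes, had no peak. Among 132 ribosomal protein genes, another strongly transcribed group, picked by their RPL and RPS symbols, 9 were covered (6.82%) and 27 touched (20.5%). The shares of all nuclear protein-coding genes were 4.42% and 21.2%, and genes of like length would give 6.08 covered and 19.9 touched. Differences between these lists and the 33 genes were not tested.

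**Figure D4:**
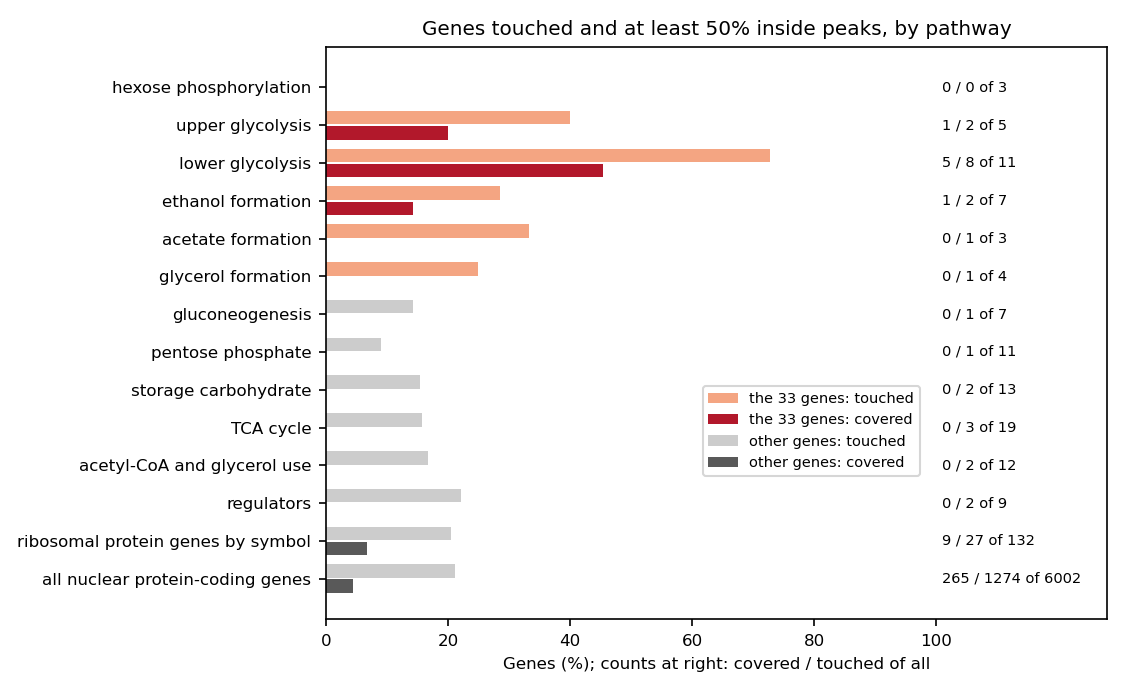
Percentage of genes touched (pale bars) and at least 50% inside peaks (dark bars) in each step of the 33 genes (red), in adjoining pathways, ribosomal protein genes and all nuclear protein-coding genes (grey), with counts at the right. Lower glycolysis has 5 covered and 8 touched of 11 genes, and of the covered ones all but CDC19 have near-identical copies. No adjoining pathway has a covered gene, where genes of like length would give 0.14 (gluconeogenesis) to 0.789 (TCA cycle) per list.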

How the data were processed

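DRIP-seq was done on 1 S9.6 immunoprecipitate and 1 input, and the peak list of the immunoprecipitate was used. The submitters' processing notes name MACS2 2.1.1.20160309, SAMtools 1.7 and the build sacCer3. The aligner, peak cutoff, handling of reads with several matches and role of the input were not given in the sources used here. Both libraries went through whole-genome amplification, per the labels' protocols. The deposited score of each peak is a whole number from 13 to 2084 of unstated scale. The deposited columns for fold, p-value and q-value hold 0 throughout and were not used. All 1723 starts and 1722 ends are multiples of 25 bp, no peak is under 200 bp, and 36 mitochondrial peaks were left out.

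Gene positions came from the RefSeq table of the R64 assembly, and strand from the systematic names. The share of each gene and of 500 bp on either side inside peaks was computed with Python 3.11.15 and pandas 2.3.3. Like-length genes were within 10%. ORFs of Ty length are 79 unnamed ORFs with the lengths of Ty Gag and Gag-Pol frames. The genes, lists and comparisons were chosen with earlier results of these data known, and the ribosomal protein genes, the peaks under the median score, the exclusion of TDH3, the touched count without near-identical copies and the comparison with ADH2 were added after seeing the data. All 33 genes were named. Of other genes, those under the same peaks, covered members of the adjoining lists and up to 2 untouched ones per list were named by rule. Depth is unknown, and no test was possible with 1 library. The planned search for promoter motifs was not run because no promoter sequence was used here.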

Additional observations from a re-analysis of the deposited data

How the results depend on the processing

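The counts were 7 covered genes, 14 touched genes and 7 of 9 isoenzyme sets led by the main gene. They were the same without peaks at tRNA genes or ORFs of Ty length, where 2.85% of all nuclear protein-coding genes were covered and 19.0% touched. With peaks at or above the median score they were 6, 11 and 6. These peaks covered 18.2% of the 33 genes and touched 33.3%, against 3.68% and 11.5% of all nuclear protein-coding genes. With those peaks, 17.6% of the genes' bases, 10.7% of the upstream and 13.1% of the downstream flanks were inside peaks, and the end part minus the start part of the genes was -1.74 points, against -2.27 with all peaks. With only peaks under the median score, 1 of the 33 genes was covered (TDH2, 3.03%) and 3 were touched (9.09%). The shares of all nuclear protein-coding genes were 0.55% and 11.0%. The minor genes TDH2 and PYK2 were then above TDH3 and CDC19, which had no such peak, and 1 set was led by its main gene. The other values were 3.47% of bases, 2.103% upstream, 1.36% downstream and -0.52 points. With 200 bp around each summit, 0 genes were covered. The shortest gene has 744 bp, and such a window cannot fill 50% of it. Touched genes numbered 14 (42.4%), and 6 sets were led by the main gene. Of all nuclear protein-coding genes, 0.317% were covered and 18.2% touched. In the 33 genes, 6.71% of bases, 3.24% upstream and 6.79% downstream were inside. With these windows TDH2, with its summit inside the gene, was above TDH3, with its summit 61 bp past the gene's end. The end part then exceeded the start part by 4.53 points, a reversed sign, and the cause was not tested. At least 25% of the length gave 13 covered genes (8.96% of all nuclear protein-coding genes) and at least 90% gave 2 (1.45%). Without the 7 genes with near-identical copies, 3 were covered, 9 touched and 15.1% of bases inside. With ADH2 among the minor alcohol dehydrogenase genes, 7 sets were still led by the main gene. Without TDH3 the values were 6 covered, 13 touched, 19.3% of bases, 10.1% upstream, 11.8% downstream and -2.34 points. Flanks of 250 bp gave 14.3% upstream and 13.5% downstream, and flanks of 1000 bp 10.5% and 14.2%. The other nuclear protein-coding genes had 6.80% and 7.75% with 250 bp, and 6.97% and 7.09% with 1000 bp. With genes in 4 equal parts the last minus the first was -2.65 points, and with 2 equal parts -1.53 points. Like-length groups within 20% gave 1.26 covered genes, and 0.948 without ORFs of Ty length. An overlap of 100 bp or more left 14 of the 33 genes touched, against 18.9% of all nuclear protein-coding genes. No paired analysis was possible because there is a single peak list, from the immunoprecipitate, and no second replicate.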
